A study of Drosophila melanogaster with 12 samples.

Results

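RNA immunoprecipitation followed by sequencing (RIP) was run on heads of adult *Drosophila melanogaster* with 2 antibodies against the same RNA-binding protein, Caper, and the question here is which kinds of RNA one antibody recovered more than the other. All 12 libraries of the series entered the comparison. They form 6 numbered pairs of an IP and its input, the lysate before immunoprecipitation, with the FLAG antibody in pairs 4, 5 and 6 and the Caper antibody in pairs 1, 2 and 3. Thus there were 3 FLAG IPs, 3 FLAG inputs, 3 Caper IPs and 3 Caper inputs. All flies were *Hsp70Gal4* x *UASCaperFlag*: a heat shock promoter drives Gal4, and Gal4 drives a transgene that encodes Caper with a FLAG tag. They were kept at 37°C for 2 h and then at 30°C overnight, so overexpression of the transgene is shared by every library, the inputs included.

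Caper belongs to the RBM39 family of SR-like proteins, which bind RNA and take part in the choice of splice sites together with the factors that recognise the 3′ end of an intron. In RIP, RNA that remains attached to a protein is isolated on beads that carry an antibody, and the IP is compared with the input to separate recovery from abundance. The FLAG antibody, a mouse monoclonal, binds the tag and so only Caper made from the transgene. The Caper antibody, a rabbit polyclonal, can bind endogenous Caper as well. The FLAG IP used magnetic beads bought with the antibody attached, and the Caper IP used beads that were incubated with the antibody. Antibody, bead and pair number therefore cannot be told apart in this design, and no mock IP was analysed here, so RNA that sticks to either bead was not measured.

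The recovery of a gene is given as the log2 ratio of IP over input within a pair, from counts scaled to the libraries' sizes. The antibody difference is the FLAG recovery minus the Caper recovery, so it is positive where the FLAG antibody recovered more, and 1 unit is a factor of 2. It was tested for 11012 genes as the interaction of antibody and IP in edgeR's quasi-likelihood test, with the 6 pairs as blocks, and adjusted by the Benjamini-Hochberg method over all genes tested; a gene was called at an adjusted p under 0.05. Nothing in the labels says that the numbered pairs came from separate cages or lysates, so p-values measure the spread between these samples only. The libraries held 20431211 to 23694613 assigned read pairs in the FLAG IPs, 23907193 to 34264177 in the Caper IPs, 9615414 to 12579559 in the FLAG inputs and 10746027 to 12401744 in the Caper inputs. The inputs themselves were not separable: 0 of 9944 genes (0.0%) were called between the FLAG and the Caper inputs by edgeR, 176 had an unadjusted p under 0.05, and DESeq2 called 0, with 107 at an unadjusted p under 0.05.

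The pairs of one antibody did not resemble each other to the same degree. Across the 11012 genes, which are not independent replicates, recoveries correlated at 0.752 to 0.793 between FLAG pairs and at 0.582 to 0.646 between Caper pairs. Between pairs of different antibodies the range was 0.505 to 0.701. Caper pair 1 correlated with FLAG pairs 4, 5 and 6 at 0.691, 0.701 and 0.652, above its correlation with Caper pairs 2 and 3 (0.582 and 0.646). Caper pair 2 also correlated more with FLAG pair 4 (0.666) than with Caper pairs 1 and 3 (0.582 and 0.592). Caper pair 3 correlated with FLAG pair 4 at 0.604, between its values with Caper pairs 1 and 2 (0.646 and 0.592). For most gene groups the count of called genes is therefore also given with each pair left out.

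The FLAG antibody recovered 729 genes (6.62% of those tested) more than the Caper antibody, and 599 genes (5.44%) less. The 729 genes had a median difference of 0.59, the 599 genes one of -0.54, and all genes one of -0.03, against a median standard error of 0.17. The difference was above 1 for 85 of the genes recovered more and below -1 for 20 of those recovered less, so most differences were smaller than 2-fold. The 3 FLAG and the 3 Caper ratios did not overlap for 720 of the 729 and 589 of the 599 called genes. Over all genes tested, the FLAG ratios lay wholly above the Caper ratios in 15.7% and wholly below in 17.4%. Most genes recovered more were long, and the lists of ion channels, transmitter receptors and chromatin regulators had most of their calls on this side, while the ribosomal protein list had its calls on the other side.

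The number of calls moved with the model and with single pairs, while no called gene was called in the opposite direction under any alternative run. Without the block for pairs, 90 genes (0.817%) were recovered more by the FLAG antibody and 16 (0.145%) less. Scaling by library size alone, which moved the median of all genes to -0.09, gave 573 more and 853 less. Without pair 1, 2, 3, 4, 5 or 6, the genes recovered more by the FLAG antibody numbered 1104, 562, 188, 510, 337 and 130, and those recovered less 1164, 349, 70, 310, 167 and 31. Leaving out pair 1 raised both counts, and leaving out any other pair lowered both.

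Most differences were differences in degree or in which IP passed its own test. The FLAG IP was enriched over input for 2893 genes (26.3%) and depleted for 3034 (27.6%), and the Caper IP was enriched for 2035 (18.5%) and depleted for 2056 (18.7%). Of the 729 genes recovered more by the FLAG antibody, 353 (48.4%) were enriched in the FLAG IP and not called in the Caper IP, 238 (32.6%) were enriched in both IPs, and 63 were depleted in the Caper IP only. Of the 599 recovered less, 268 (44.7%) were depleted in the FLAG IP and not called in the Caper IP, 187 (31.2%) were depleted in both, and 101 were enriched in the Caper IP only. For 78 genes the IPs were called in opposite directions, 45 of them enriched in the FLAG IP and depleted in the Caper IP and 33 the reverse. The scatter of both recoveries shows ribosomal protein mRNAs below the line of equal recovery and chromatin, channel and receptor mRNAs mostly above it.

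**Figure D1:**
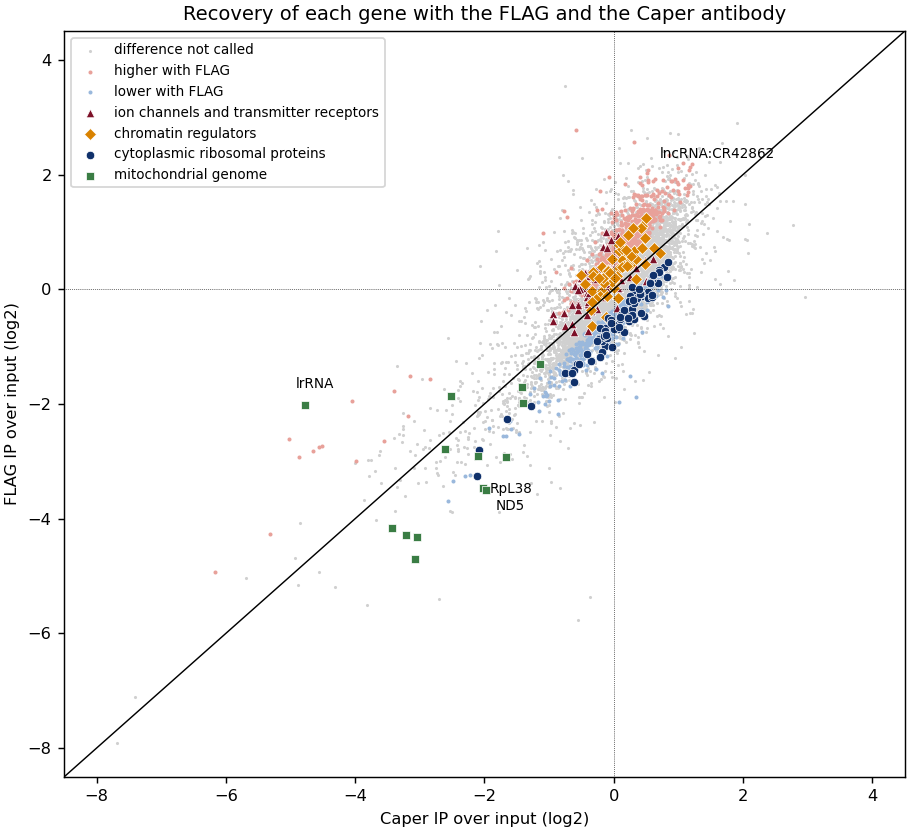
Recovery by each antibody for the 11012 genes tested, with the log2 ratio of Caper IP over input on the x axis and that of FLAG IP over input on the y axis; each point is a gene, the diagonal marks equal recovery, and coloured symbols mark 4 gene groups. All 80 ribosomal protein genes lie below the diagonal, as do 12 of the 14 mitochondrial genes, and most chromatin regulators, channels and receptors lie above it.

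mRNAs of cytoplasmic ribosomal proteins, the protein part of the ribosome, were the group recovered most evenly less by the FLAG antibody. Of 80 genes tested, 64 were recovered less and 0 more, with a median difference of -0.60 against -0.03 over all genes. All 80 differences were below 0, and the ratios of the pairs did not overlap in 71. In the FLAG IP 51 of the 80 were depleted and 6 enriched, whereas in the Caper IP 12 were depleted and 35 enriched. The large subunit had 38 of 47 genes recovered less and the small subunit 26 of 33, with medians of -0.58 and -0.67. The 16 genes not called had adjusted p-values of 0.050 to 0.262 in edgeR's test.

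*RpS2*, a protein of the small subunit (FBgn0004867, chromosome arm 2L, 9896265 to 9897552 in dmel_r6.36), had 508, 402 and 338 CPM (counts scaled to library size) in the FLAG IPs against 939.6, 804 and 753 in their inputs, and 719, 802 and 973 in the Caper IPs against 778, 806 and 945 in theirs. The FLAG IPs were all below every input, while the Caper IPs were at the level of their inputs. The recovery in FLAG pairs 4, 5 and 6 was -0.89, -1.0 and -1.16, that in Caper pairs 1, 2 and 3 was -0.11, -0.01 and 0.04, and the difference was -0.99 ± 0.11 (SE, adjusted p = 0.0012).

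*RpL22* (FBgn0015288, X, 762560 to 765130), a protein of the large subunit, had 401, 358 and 308 CPM in the FLAG IPs and 569.7, 453 and 452 in the FLAG inputs, against 581, 751 and 852 in the Caper IPs and 417, 561 and 592 in the Caper inputs. Every FLAG IP was below its input and every Caper IP above. The difference was -0.94 ± 0.10 (adjusted p = 0.0012). *RpL22* shares part of its exons with the noncoding gene *lncRNA:CR42491* and with 2 small nucleolar RNAs (snoRNAs), as *RpS20*, *RpS12* and *RpL30* do with snoRNAs, so some of their reads could belong to those.

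Shifts of like size occurred in ribosomal protein mRNAs of different recovery. *RpL38*, a small protein of the large subunit, was depleted in all 6 IPs, with 26, 18.8 and 17 CPM in the FLAG IPs against 231, 153 and 202 in their inputs, and 32.5, 58.1 and 64.8 CPM in the Caper IPs against 170.0, 238 and 248 in theirs. Its difference was -1.13 ± 0.16 (adjusted p = 0.0028). *RpS24* lay on opposite sides of its input, at -0.42 with the FLAG antibody and 0.43 with the Caper antibody (difference -0.85 ± 0.13, adjusted p = 0.0044). Differences of *RpS20*, *RpS12*, *RpL30* and *RpLP2* were -0.996, -0.98, -0.91 and -0.91.

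The count for this group varied with the pair left out. Its median recovery was -0.27, -0.49 and -0.60 in FLAG pairs 4, 5 and 6 and -0.10, 0.33 and 0.27 in Caper pairs 1, 2 and 3. Caper pair 1 thus lay between the others and FLAG pair 4. With pair 1, 2, 3, 4, 5 or 6 left out, 79, 37, 18, 60, 26 and 10 of the 80 were recovered less, and 0 were called without the block for pairs.

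Of 28 genes of the list of translation factors, 10 were recovered less by the FLAG antibody and 1 more, with a median difference of -0.22. *eIF1*, which takes part in the choice of the start codon, had 30.4, 24.9 and 22.6 CPM in the FLAG IPs against 80.5, 63.2 and 71.2 in their inputs, and 34.7, 52.6 and 60.1 CPM in the Caper IPs against 71.2, 77.9 and 88.4 in theirs. It was depleted by both antibodies, and more deeply by the FLAG antibody (difference -0.75 ± 0.15, adjusted p = 0.012). *eIF4B*, a cofactor of the eIF4A helicase, and *eEF5*, an elongation factor, had differences of -0.57 and -0.48.

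The exception was *eIF4G2*, a form of the eIF4G scaffold that joins the cap-binding protein to the ribosome. It had 388, 430.1 and 447 CPM in the FLAG IPs against 251, 268 and 283 in their inputs, and 272, 259 and 260.4 in the Caper IPs against 285, 262 and 279 in theirs. Each FLAG IP was above its input and each Caper IP slightly below (difference 0.72 ± 0.09, adjusted p = 0.0021). It overlaps *CG33111* on the same strand. In fits that left out pair 1, 2, 3, 4, 5 or 6, 11, 3, 0, 6, 2 and 0 of the factors were recovered less, and 0 without the block. Of 20 aminoacyl-tRNA synthetases, which charge tRNAs, 3 (15%, against 5.44% of all genes) were recovered less (*TyrRS*, *IleRS* and *AspRS*, -0.47, -0.41 and -0.38). Recovered more was 1 (5%, against 6.62%), *TrpRS* (0.45). When pair 1, 2, 3, 4, 5 or 6 was left out, 6, 0, 0, 1, 1 and 0 synthetases were recovered less. Of 30 ribosome biogenesis genes, 2 (6.67%, against 6.62% of all genes) were recovered more and 2 (6.67%, against 5.44%) less (median 0.00). In the same order of pairs left out, 6, 3, 1, 2, 1 and 1 of these were recovered more and 2, 0, 0, 1, 0 and 0 less.

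Nuclear genes for oxidative phosphorylation, the mitochondrial respiratory chain and ATP synthase, stood on the same side, and here the counts rested on few pairs. Of 67 genes, 15 were recovered less by the FLAG antibody and 0 more, with a median difference of -0.54 and all 67 differences below 0. The median recovery was -0.82, -0.98 and -1.10 in FLAG pairs 4, 5 and 6 and -0.91, -0.38 and -0.16 in Caper pairs 1, 2 and 3. Caper pair 1 was among the FLAG pairs, and the ratios of the pairs did not overlap in only 16 of the genes. Without pair 1, 63 of the 67 were recovered less, and without pair 2, 3, 4, 5 or 6 the count was 3, 0, 8, 0 and 0.

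*ATPsynB*, a subunit of the stalk of ATP synthase, had 154, 120.3 and 124 CPM in the FLAG IPs against 302, 281 and 292 in their inputs. It had 174, 253 and 309 CPM in the Caper IPs against 326, 322 and 299 in theirs. The FLAG IPs were all below their inputs, and so was Caper IP 1, whereas Caper IP 3 was at its input's level (difference -0.75 ± 0.20, adjusted p = 0.037). *COX8*, a small subunit of cytochrome c oxidase, was at -3.10, -3.50 and -3.43 in FLAG pairs 4, 5 and 6 and at -3.18, -2.10 and -2.20 in Caper pairs 1, 2 and 3 (difference -0.86 ± 0.24, adjusted p = 0.045). *ox*, a subunit of the cytochrome bc1 complex, and *ATPsynG* had differences of -0.79 and -0.74.

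The lists of mitochondrial ribosomal proteins, the vacuolar ATPase and the proteasome contained genes recovered less by the FLAG antibody and none recovered more. Of 72 mitochondrial ribosomal protein genes 8 (11.1%, against 5.44% of all genes) were recovered less (median -0.34, with 67 below 0). They were led by *mRpL10*, *mRpL55* and *mRpS33* at -0.75, -0.74 and -0.71. Of 17 subunits of the vacuolar ATPase, the proton pump of acidic organelles, 7 were recovered less, with a median of -0.36. *Vha68-2*, its catalytic subunit A, had 103.9, 100.03 and 94.1 CPM in the FLAG IPs against 148, 165 and 167 in their inputs, and 141, 129 and 134 CPM in the Caper IPs against 159.6, 158 and 140.4 in theirs (difference -0.50 ± 0.11, adjusted p = 0.019). Both antibodies left it at or below its input, and the FLAG IPs were the lowest libraries. *Vha16-1*, *VhaAC39-1* and *Vha100-2* followed at -0.48, -0.47 and -0.40. Of 31 proteasome subunits 4 (12.9%, against 5.44% of all genes) were recovered less, with a median of -0.20.

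Of 12 glycolytic enzymes 5 were recovered less and 0 more, with a median of -0.37. *PyK*, the pyruvate kinase that makes ATP in the last step (3R, 22367536 to 22372746), had 387, 479 and 386 CPM in the FLAG IPs against 590.5, 762 and 638 in their inputs. In the Caper IPs it had 718, 579 and 575 CPM, against 799, 636 and 533 in their inputs. The FLAG recovery was lower than the Caper recovery in every pair (difference -0.61 ± 0.11, adjusted p = 0.0082). *Gapdh1* and *Gapdh2*, near-identical copies of glyceraldehyde 3-phosphate dehydrogenase whose reads may be split, had differences of -0.65 and -0.49, and *Pgk*, phosphoglycerate kinase, -0.49.

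Genes for entry of proteins into the endoplasmic reticulum and for cutting of their signal peptides had 8 of 25 members recovered less and 0 more (median -0.42). Examples are *Ost48* and *Ostgamma*, subunits of the oligosaccharyltransferase that attaches sugars (-0.73 and -0.69), *Spase22-23* of the signal peptidase (-0.56) and *Srp54k* of the signal recognition particle (-0.56). *Ost48* had 19.3, 16.59 and 15 CPM in the FLAG IPs and 43.5, 31.8 and 34.4 in the FLAG inputs, against 21.3, 30.2 and 29.3 in the Caper IPs and 33, 36.3 and 34.2 in the Caper inputs. It was below its input in all 6 pairs. Without pair 1, 2, 3, 4, 5 or 6, the genes recovered less numbered 17, 4, 0, 5, 3 and 0 for this list, 10, 3, 0, 4, 0 and 0 for the vacuolar ATPase and 8, 7, 0, 3, 1 and 0 for glycolysis. For mitochondrial ribosomal proteins they numbered 23, 1, 0, 2, 0 and 0 and for the proteasome 13, 1, 0, 1, 1 and 0. The plot of list medians by pair gives the recovery of these lists in each pair.

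Phototransduction genes, the light-sensing cascade of the eye, also lay on the Caper side, with 5 of 29 recovered less by the FLAG antibody, 0 more, and a median of -0.30. *ninaE* (3R, 19886255 to 19888206), the opsin of most outer photoreceptors, had 18231, 15796 and 13989 CPM in the FLAG IPs and 23333, 22267 and 22083 in the FLAG inputs, against 22920.0, 26522 and 32870.0 in the Caper IPs and 21400.0, 23975 and 26933 in the Caper inputs. All 3 FLAG IPs were below their inputs and all 3 Caper IPs above (difference -0.68 ± 0.15, adjusted p = 0.017). The opsins of inner photoreceptors, *Rh5* and *Rh6*, had differences of -0.79 and -0.73, and *retinin*, a protein of the corneal lens, -0.72. With pair 1, 2, 3, 4, 5 or 6 left out, the count was 16, 5, 0, 4, 2 and 0.

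Transcripts of the mitochondrial genome split by kind. Of the 12 mitochondrial protein-coding genes tested, 6 were recovered less by the FLAG antibody, 0 more, and the median difference was -0.94. Both antibodies depleted them, with a median recovery of -3.20 by the FLAG antibody and -2.06 by the Caper antibody. *ND5*, a core subunit of respiratory complex I (mitochondrial genome, 6409 to 8125), had 8.75, 7.77 and 6.37 CPM in the FLAG IPs against 88.2, 91.8 and 77.9 in their inputs, and 31, 23.8 and 28.7 in the Caper IPs against 117, 103 and 108 in theirs. Every IP was far below its input, and the FLAG IPs were below every Caper IP (difference -1.52 ± 0.12, adjusted p = 0.00074). *ND4*, *ND1*, *ND2*, *ATP6* and *CYTB* had differences of -1.45, -1.28, -1.07, -0.81 and -0.58. The cytochrome c oxidase subunits *COX1*, *COX2* and *COX3* were not called, at -0.30, -0.19 and -0.16, and neither was *ND4L*, at -1.63 (adjusted p = 0.052), whose reads overlap those of *ND4*.

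The mitochondrial ribosomal RNAs went the other way. *lrRNA*, the large mitochondrial rRNA (12735 to 14058), had 21721, 11333 and 22361 CPM in the FLAG IPs against 79489, 69374 and 67254 in their inputs, and 2909, 2430.5 and 4144 CPM in the Caper IPs against 74234, 86799 and 93743 in theirs. All IPs were below the inputs, and the Caper IPs were lower than the FLAG IPs. The difference was 2.75 ± 0.27 (adjusted p = 0.0012), and that of the small mitochondrial rRNA, *srRNA*, 0.66 ± 0.19 (adjusted p = 0.047). Of the 14 mitochondrial genes 6 were thus recovered less and 2 more. In fits that left out pair 1, 2, 3, 4, 5 or 6, they were 7, 6, 4, 5, 5 and 3 recovered less and 2, 2, 1, 1, 1 and 1 more, and without the block for pairs 3 and 1.

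Nuclear ribosomal RNA sequences followed *lrRNA*. Of 7 rRNA pseudogenes, copies of the rRNA repeat that lie outside it, 5 were recovered more by the FLAG antibody and 0 less, with a median difference of 1.79, and 4, 3, 4, 4 and 4 were called without pair 2, 3, 4, 5 or 6. *28SrRNA-Psi:CR45859* (X, 23214452 to 23217140) had 4.81, 3.86 and 4.22 CPM in the FLAG IPs against 30.1, 25.8 and 29.5 in their inputs, and 1.08, 1.42 and 1.39 CPM in the Caper IPs against 25, 31.1 and 33.4 in theirs. Both antibodies depleted it in every pair, the Caper antibody more (difference 1.79 ± 0.16, adjusted p = 0.0012). *5SrRNA:CR33367*, a copy of the 5S rRNA, had a difference of 1.64. These sequences are near copies of one another, so reads may be split among them, and library preparation used probes that remove *Drosophila* rRNA. Reads that mapped to several places, which are not in the counts, made up 34.3% to 40.9% of alignments in the FLAG IPs, 21.7% to 24.7% in the Caper IPs, 72.5% to 74.3% in the FLAG inputs and 71.7% to 75.2% in the Caper inputs, so they too were more frequent in the FLAG IPs than in the Caper IPs. Their part in the result was not tested.

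Of 114 snoRNAs, which guide the modification of rRNA, 8 (7.02%, against 6.62% of all genes) were recovered more by the FLAG antibody and 1 (0.877%, against 5.44%) less. *snoRNA:SC35-a* lies within *SC35*, a gene for an SR splicing protein, and had 6.8, 8.32 and 11 CPM in the FLAG IPs against 35.8, 31.7 and 32.4 in their inputs, and 2.82, 2.69 and 1.7 CPM in the Caper IPs against 41.8, 39.3 and 39.1 in theirs. It was depleted by both antibodies, and the Caper IPs were the lowest libraries (difference 2.11 ± 0.23, adjusted p = 0.0012). *snoRNA:SC35-b*, in the same host gene, had a difference of 1.64, and *snoRNA:Psi28S-1135f*, in *RpS5a*, one of -1.28. Reads of a host's transcript and of its snoRNA cannot be told apart. The 19 small nuclear RNAs tested, the RNAs of the spliceosome, had recoveries with a median of -2.07 by the FLAG antibody and -2.44 by the Caper antibody. Without pair 1, 2, 3, 4, 5 or 6, 11, 6, 2, 6, 2 and 2 snoRNAs were recovered more.

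Of 353 long noncoding RNAs 8 (2.27%) were recovered more and 5 (1.42%) less, against 6.62% and 5.44% of all genes. When pair 1, 2, 3, 4, 5 or 6 was left out, 15, 8, 2, 8, 4 and 2 long noncoding RNAs were recovered more and 10, 3, 4, 3, 3 and 2 less. *lncRNA:roX2* (X, 11579065 to 11580432), an RNA of the complex that raises transcription of the male X chromosome, had 32, 31.4 and 33.7 CPM in the FLAG IPs against 91.1, 74.3 and 90.8 in their inputs. It had 70.7, 60.1 and 69.7 CPM in the Caper IPs against 70.3, 83.8 and 88.5 in theirs. The FLAG IPs held less than every other library (difference -1.12 ± 0.14, adjusted p = 0.002; adjusted p = 0.018 without the block for pairs). *lncRNA:roX1*, the other RNA of that complex, looked up after the value of *lncRNA:roX2* was seen, had a difference of -0.78 ± 0.14 (adjusted p = 0.0091), with a recovery of -0.36 by the FLAG antibody and 0.42 by the Caper antibody. In the opposite direction, *lncRNA:CR42862*, which overlaps *CG33229*, had recoveries of 1.75, 2.23 and 2.11 in FLAG pairs 4, 5 and 6, against 1.10, 0.37 and 0.07 in Caper pairs 1, 2 and 3 (difference 1.52 ± 0.23, adjusted p = 0.0044).

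Of 57 chromatin regulators, genes whose products move, modify or bind nucleosomes, 22 (38.6%) were recovered more by the FLAG antibody and 0 less, with a median difference of 0.30 against -0.03 over all genes. The FLAG IP was enriched for 37 of the 57 and the Caper IP for 14. The median recovery was 0.22, 0.34 and 0.38 in FLAG pairs 4, 5 and 6 and 0.07, 0.01 and -0.06 in Caper pairs 1, 2 and 3. *kis* (2L, 210735 to 250823, 19229 exon bases), an ATP-dependent chromatin remodeller of the CHD family, had 1049, 1599.5 and 1253 CPM in the FLAG IPs and 919.6, 1339 and 1005 in the FLAG inputs, against 928, 669 and 714 in the Caper IPs and 1254, 1032 and 994 in the Caper inputs. Each FLAG IP was above its input and each Caper IP below (difference 0.77 ± 0.10, adjusted p = 0.0027). *Cp190*, an insulator protein, *brm*, the ATPase of the SWI/SNF complex, and *Kdm4A*, a histone demethylase, had differences of 0.77, 0.75 and 0.72. With pair 1, 2, 3, 4, 5 or 6 left out, 28, 15, 6, 15, 9 and 2 were recovered more, and 0 without the block.

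Transcription factors of the nervous system had 16 of 64 members recovered more and 1 less, with a median of 0.29. *ct*, a homeodomain factor of sensory neurons and dendrites (X, 7608428 to 7678859), had 692, 1116 and 852 CPM in the FLAG IPs against 343, 447 and 325 in their inputs, and 553, 373 and 352 CPM in the Caper IPs against 414, 361 and 353 in theirs. The FLAG IPs were above every other library, and of the Caper IPs only replicate 1 stood clearly above its input (difference 1.09 ± 0.14, adjusted p = 0.0023). *br*, an ecdysone-responsive zinc finger factor, *mamo* and *pros*, which are factors of neuronal identity, had differences of 1.05, 0.88 and 0.64. The gene recovered less, named after its value was seen, was the Hox gene *Scr*, at -0.57. In fits that left out pair 1, 2, 3, 4, 5 or 6, 26, 15, 4, 15, 11 and 3 were recovered more.

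Ion channels and transmitter receptors, the proteins of neuronal excitability, had a median recovery near 0 by the FLAG antibody and below 0 by the Caper antibody. Of 32 voltage-gated and potassium channels 14 were recovered more by the FLAG antibody and 1 less (*Irk2*, -0.39, named after its value was seen). The median difference was 0.31, from a recovery of 0.04, -0.02 and 0.15 in FLAG pairs 4, 5 and 6 and of -0.20, -0.32 and -0.29 in Caper pairs 1, 2 and 3. *Shab*, a delayed rectifier potassium channel (3L, 2895017 to 2959579), had 442, 515 and 507 CPM in the FLAG IPs against 260.4, 281 and 264 in their inputs, and 262, 261 and 243 CPM in the Caper IPs against 252, 251 and 289 in theirs. The FLAG IPs were well above all other libraries, among which Caper IPs and inputs overlapped (difference 0.91 ± 0.11, adjusted p = 0.0021). *eag*, a potassium channel, and *Ca-alpha1T*, a T-type calcium channel, were enriched in the FLAG IP and depleted in the Caper IP, at 0.28 against -0.44 and 0.28 against -0.39, and *NaCP60E*, a sodium channel gene that overlaps *CG9083*, had a difference of 0.66.

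Of 39 transmitter receptors 15 were recovered more and 1 less (*Dop2R*, -0.36, named after its value was seen), with a median of 0.26. *nAChRalpha5*, a subunit of the nicotinic acetylcholine receptor (2L, 14040170 to 14094401), had 280.3, 271 and 303 CPM in the FLAG IPs against 154, 133 and 142 in their inputs, and 143, 119.6 and 132 CPM in the Caper IPs against 134, 126 and 171 in theirs. FLAG IPs stood apart from all other libraries (difference 1.11 ± 0.13, adjusted p = 0.0016). It overlaps *NimC4* on the same strand. *nAChRbeta1* and *nAChRalpha6*, further nicotinic subunits, and *Rdl*, a GABA-gated chloride channel, had differences of 0.91, 0.86 and 0.82. Without pair 1, 2, 3, 4, 5 or 6, 16, 12, 5, 6, 10 and 4 receptors and 16, 11, 7, 10, 11 and 5 channels were recovered more, and without the block for pairs 5 receptors and 2 channels.

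Cell adhesion and axon guidance genes had 12 of 58 members recovered more by the FLAG antibody and 0 less (median 0.14). *Dscam2*, an immunoglobulin-superfamily protein by which neurites recognise each other (3L, 7159199 to 7189931), had 350.1, 379.6 and 367 CPM in the FLAG IPs and 219, 254 and 219 in the FLAG inputs, against 211, 200.04 and 219 in the Caper IPs and 249, 225 and 251 in the Caper inputs. It was above input in every FLAG pair and below input in every Caper pair (difference 0.87 ± 0.09, adjusted p = 0.0012). Of its relatives, *Dscam1* was at 0.37 with the FLAG antibody against -0.24 with the Caper antibody, and *Dscam4* had a difference of 0.56. *tutl*, another immunoglobulin-superfamily protein, was at 0.33 against -0.23.

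Of 36 genes for the active zone and vesicle release, where transmitter is set free, 8 were recovered more and 0 less, with a median of 0.12. *Rim*, a scaffold protein of the active zone (3R, 17872748 to 17916578, 14257 exon bases), had 686, 871 and 807 CPM in the FLAG IPs against 386, 459 and 380.3 in their inputs, and 460.2, 381 and 386 CPM in the Caper IPs against 427, 401 and 432 in theirs. The FLAG IPs exceeded every other library (difference 0.99 ± 0.11, adjusted p = 0.0016). *brp*, the core protein of the T-bar, was at 0.92, 0.98 and 1.07 in FLAG pairs 4, 5 and 6 and at 0.24, 0.17 and -0.03 in Caper pairs 1, 2 and 3 (difference 0.86 ± 0.11, adjusted p = 0.0023). *RhoGAP100F*, also known as syd-1, and the presynaptic calcium channel *cac* had differences of 0.62 and 0.54. Of 19 genes for transmitter synthesis and transport 2 (10.5%, against 5.44% of all genes) were recovered less. They were *Gat*, a GABA transporter (-0.39), and *Eaat1*, a glutamate transporter (-0.32), both of which are glial transporters. When pair 1, 2, 3, 4, 5 or 6 was left out, 3, 1, 0, 0, 0 and 0 genes of this list were recovered less. With pair 1, 2, 3, 4, 5 or 6 left out, 9, 5, 3, 5, 6 and 2 active zone genes and 16, 9, 3, 8, 8 and 2 adhesion genes were recovered more, and 2 of each list without the block.

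**Figure D2:**
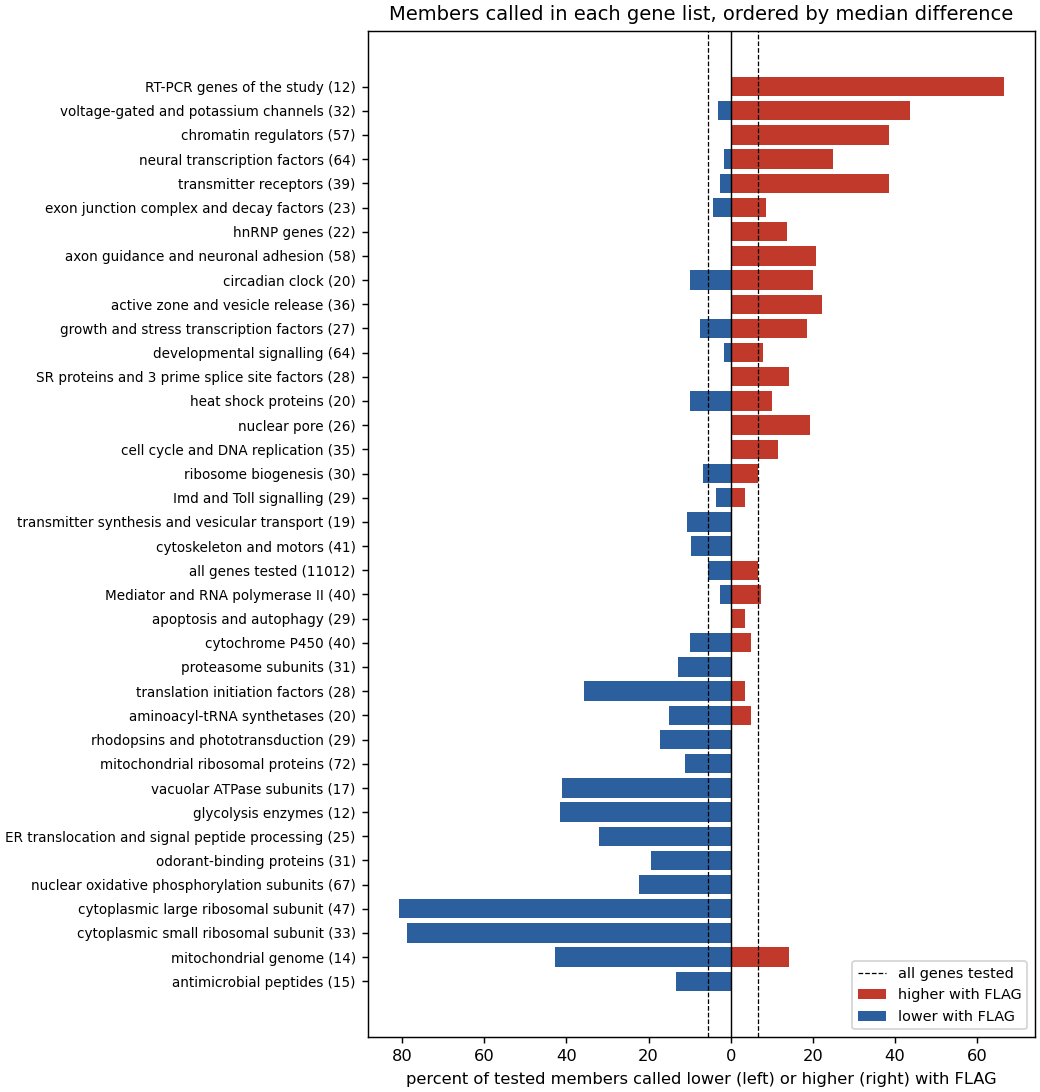
Percentage of the tested genes of each list that the FLAG antibody recovered less (bars to the left) or more (bars to the right) than the Caper antibody, by edgeR's test at an adjusted p under 0.05, with dashed lines at the values for all 11012 genes (5.44% and 6.62%). Ribosomal protein lists reach about 80% on the left, and channels, chromatin regulators and receptors lie near 40% on the right.

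Calls among splicing factors, the genes closest to Caper's own function, were all on the FLAG side. Of 28 SR proteins and factors of the 3′ splice site 4 (14.3%) were recovered more by the FLAG antibody and 0 less. The share recovered more over all genes was 6.62%, and the list had a median of 0.09. *Acn*, which encodes a protein that joins the exon junction complex, had 325, 524 and 407 CPM in the FLAG IPs against 134, 133 and 129.8 in their inputs, and 233, 179 and 142 CPM in the Caper IPs against 122, 126 and 132 in theirs. It was above its input in all 6 pairs. The recovery was 1.28, 1.98 and 1.65 in FLAG pairs 4, 5 and 6 and 0.93, 0.51 and 0.10 in Caper pairs 1, 2 and 3, so the Caper pairs differed among themselves (difference 1.13 ± 0.21, adjusted p = 0.01). *hfp*, a homologue of the splicing factor PUF60, and *Prp8*, at the core of the spliceosome, had differences of 0.58 and 0.49, and both overlap small RNA genes of the nucleus.

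Of 22 genes of the hnRNP list 3 (13.6%) were recovered more and 0 less. They were *qkr58E-1*, a *quaking*-related gene that the list holds, *CG30122* and *Hrb98DE* (0.96, 0.66 and 0.46). With the correction for exon length described below, 3 were recovered more and 1 less, and the list's median was -0.06, against 0.17 without it. Among 23 genes of the exon junction complex and RNA decay, *AGO2*, the Argonaute of the siRNA pathway, and *pcm*, the exonuclease that degrades decapped mRNA, were recovered more (0.74 and 0.70) and *tsu*, a core subunit of the exon junction complex, less (-0.57). Shares recovered more and less were 8.70% and 4.35% in the exon junction and decay list, against 6.62% and 5.44% of all genes. Of 40 Mediator and RNA polymerase II genes 3 (7.5%) were recovered more and 1 (2.5%) less. When pair 1, 2, 3, 4, 5 or 6 was left out, 6, 2, 0, 2, 0 and 0 exon junction and decay genes and 4, 3, 0, 3, 2 and 0 Mediator and polymerase genes were recovered more.

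Nuclear pore genes had a median near 0 (0.02, or -0.03 with scaling by library size alone) although 5 of 26 were recovered more and 0 less. *Nup153* (X, 16599241 to 16610459), a protein of the nuclear basket of the pore, had 508, 643 and 802 CPM in the FLAG IPs against 230.0, 272 and 283 in their inputs, and 318, 325 and 302 CPM in the Caper IPs against 237, 247 and 257 in theirs. All 6 IPs were above their inputs, the FLAG IPs more so (difference 0.94 ± 0.12, adjusted p = 0.0021). *Nup214*, *Nup358* and *Nup98-96*, further proteins of the pore, had differences of 0.86, 0.83 and 0.55. In fits that left out pair 1, 2, 3, 4, 5 or 6, 8, 3, 2, 5, 2 and 1 SR and splice site genes, 7, 2, 0, 3, 1 and 0 hnRNP genes and 5, 4, 2, 4, 3 and 3 nuclear pore genes were recovered more.

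**Figure D3:**
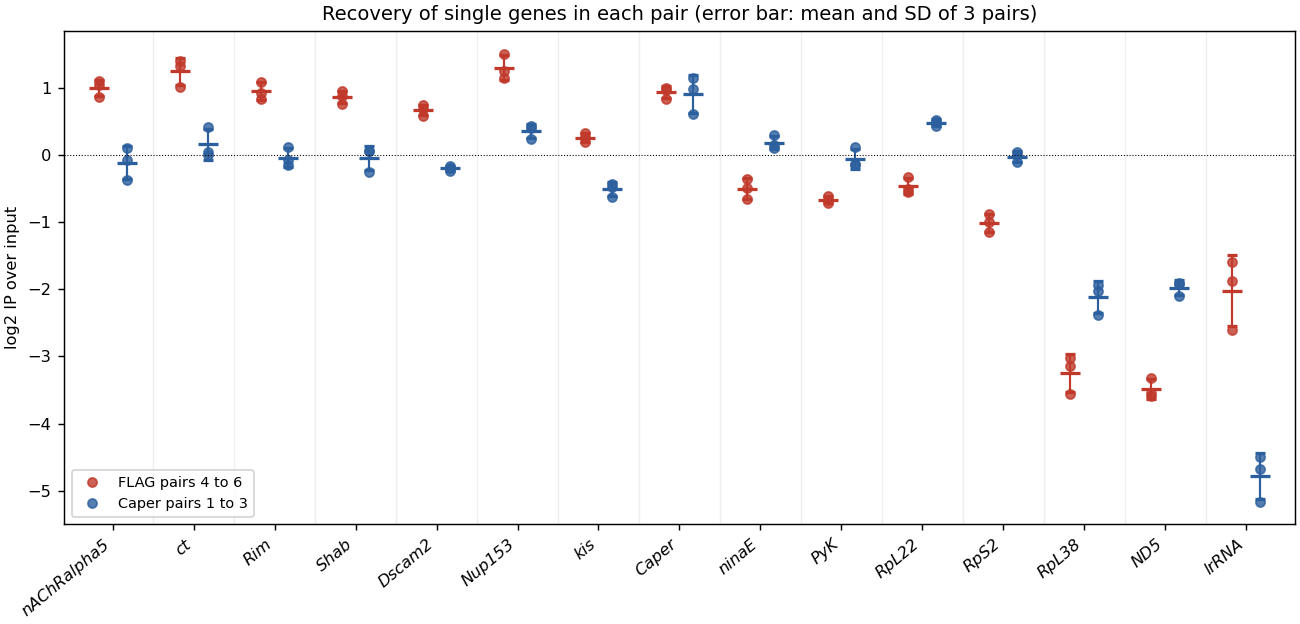
Log2 ratio of IP over input of 15 genes, on the y axis, in each FLAG pair (red, left) and each Caper pair (blue, right), with the mean ± SD of the 3 pairs. The pairs of the antibodies do not overlap in 14 genes, among them *Dscam2* (0.58 to 0.74 with the FLAG antibody and -0.24 to -0.17 with the Caper antibody), and overlap in *Caper*. These 14 genes were chosen among genes called in the same libraries, so their lack of overlap follows in large part from the choice.

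*Caper* itself (FBgn0031883, 2L, 7032721 to 7037878) was recovered to a like extent by both antibodies. It had 2582, 2148 and 1455 CPM in the FLAG IPs against 1453, 1097 and 729.6 in their inputs, and 1615, 2619 and 1678 CPM in the Caper IPs against 824, 1186 and 1107 in theirs. Each IP was above its input, with adjusted p = 2.42e-05 for the FLAG IP and 9.39e-05 for the Caper IP in edgeR's test, while the inputs themselves differed widely within an antibody. The recovery was 0.83, 0.97 and 0.996 in FLAG pairs 4, 5 and 6 and 0.97, 1.14 and 0.60 in Caper pairs 1, 2 and 3, and the difference was 0.03 ± 0.14 (adjusted p = 0.93). Counts for *Caper* can include mRNA from the transgene, and the gene overlaps *milt* on the same strand.

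Exon length separated the FLAG side from the Caper side of the whole table. Genes recovered more by the FLAG antibody had a median of 5384 exon bases, genes recovered less 1574, and all genes tested 2004. The gene's span on the genome had medians of 9620, 2084 and 2648.5 bases and the number of separate exon blocks 8, 3 and 4. In 5 bins of about equal size, of 31 to 1051, 1052 to 1652, 1653 to 2418, 2419 to 3962 and 3963 to 71820 exon bases, the share recovered more was 1.09%, 1.32%, 2.14%, 5.27% and 23.3%, and the share recovered less 7.39%, 7.31%, 6.41%, 4.64% and 1.45%. Of the 729 genes recovered more, 513 were in the bin of the longest genes. The median difference in these bins was -0.23, -0.14, -0.08, 0.01 and 0.19.

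The recoveries behind this difference took different shapes. The median recovery by the FLAG antibody was -0.44, -0.06, 0.04, 0.06 and 0.14 in the same bins, so it was higher in each bin than in the one before. That by the Caper antibody was -0.21, 0.08, 0.11, 0.07 and -0.05, highest in the middle. Without pair 1, 2, 3, 4, 5 or 6, 676, 375, 152, 345, 280 and 106 of the longest genes were recovered more, and 419, 78, 22, 112, 46 and 13 of the shortest were recovered less. Longer genes also have more counts, with a median of 70.5 in the shortest bin and 1914 in the longest. Calls in both directions were more frequent at higher mean count. The lowest of 5 bins of mean count held 11 genes recovered more and 3 less, and the highest 452 and 259. By exon length, in contrast, the share recovered less fell from 7.39% in the shortest bin to 1.45% in the longest.

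**Figure D4:**
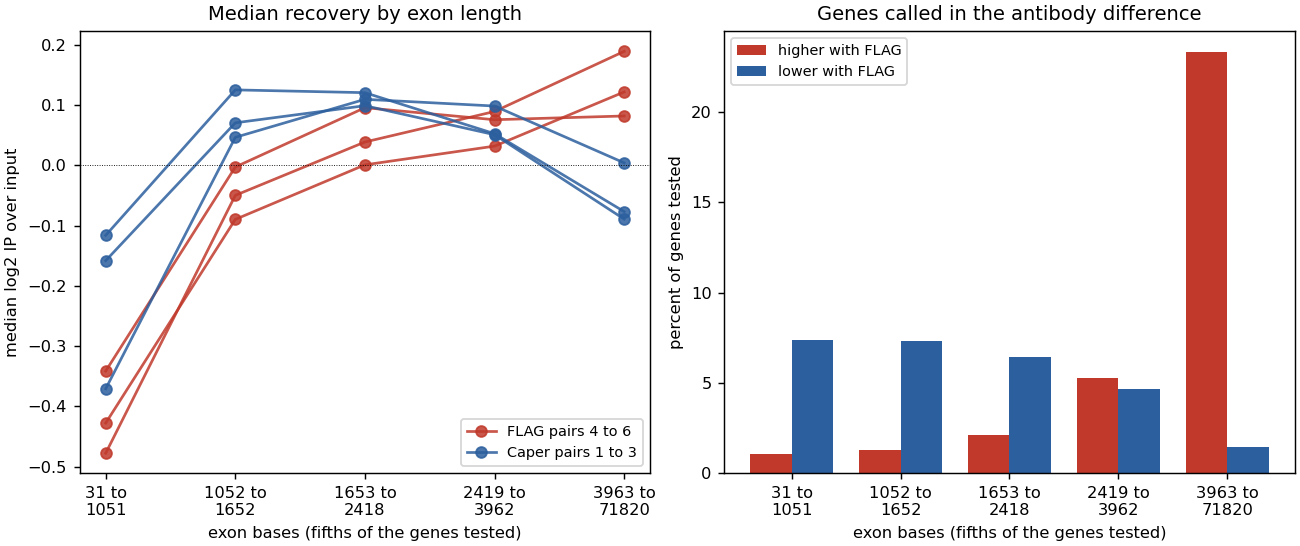
Left, median log2 ratio of IP over input on the y axis in 5 bins of exon length on the x axis, for each FLAG pair (red) and each Caper pair (blue); right, percentage of genes in each bin that the FLAG antibody recovered more or less by edgeR's test. The share recovered more is 1.09% in the shortest bin and 23.3% in the longest, and the share recovered less 7.39% and 1.45%.

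With a smooth trend on exon length taken out of each library, 355 genes (3.22%) were recovered more by the FLAG antibody and 633 (5.75%) less, of which 342 and 440 were also called without this correction. Of the 80 ribosomal protein genes, 47 were recovered less with the correction, against 64 without it, and their median was -0.52 against -0.60. On the FLAG side the medians became smaller: 0.13 for chromatin regulators (9 of 57 recovered more and 1 less), 0.12 for neural transcription factors (5 of 64 more), 0.06 for channels (4 of 32 more), 0.06 for receptors (5 of 39 more), -0.11 for active zone genes (2 of 36 more and 1 less) and -0.08 for adhesion genes (2 of 58 more and 5 less). In the same fit, where the median of all genes was -0.07, 11 of 29 phototransduction genes and 8 of 12 glycolytic enzymes were recovered less. Like the ribosomal protein genes, other lists on the Caper side lost calls, among them oxidative phosphorylation (10 of 67 recovered less), mitochondrial ribosomal proteins (2 of 72) and the proteasome (1 of 31). The vacuolar ATPase and endoplasmic reticulum lists had 6 of 17 and 6 of 25. *kis* was at 0.36 and *Dscam1* at 0.17 with the correction, against 0.77 and 0.62 without it. Whether a long gene differed through its length or through its membership of these lists cannot be told apart.

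Shares of called genes were also set side by side within bins of length and level. Among genes in the shortest bin of exon length and the highest bin of mean count, 43 of 51 ribosomal protein genes (84.3%) were recovered less by the FLAG antibody, against 28 of 94 others (29.8%). In the next bin of length they were 18 of 26 (69.2%) against 41 of 121 (33.9%). In the longest bin at the same level, 396 of 1239 genes that encode no ribosomal protein (31.96%) were recovered more and 18 less. These shares were not tested against each other, and within the highest bin of mean count the levels of the compared genes were not matched.

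The largest differences among genes with a mean of at least 50 counts that no list held were mostly genes of little known function or low level. *Erk7*, an atypical MAP kinase, had 12, 16 and 28.5 CPM in the FLAG IPs against 4.68, 3.45 and 6.03 in their inputs, and 4.61, 6.53 and 10.5 CPM in the Caper IPs against 5.08, 5.42 and 5.26 in theirs. Its FLAG IPs were all above the inputs, with replicate 6 the highest (difference 1.55 ± 0.32, adjusted p = 0.014). *Muc30E*, a mucin, had the largest difference of a protein-coding gene named here, at 2.26 ± 0.39 (adjusted p = 0.0074), on 6 to 247 counts per library. *CG14856* and *CG18810* followed at 1.66 and 1.55. On the Caper side, *COX7AL2*, related to a subunit of cytochrome c oxidase, was at -1.12, *Tcs5*, part of a complex that modifies tRNA, at -1.18, *CG34227* at -1.31 and *CheA7a*, of a family expressed in chemosensory organs, at -1.07. Of the 6 fits that each left out 1 pair, *Muc30E* and *CG34227* were called in 5 and *Erk7* in 4. *CG14856* and *CheA7a* were called in 3, *CG18810* in 2, and *COX7AL2* and *Tcs5* in 1.

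The 12 genes that the study tested by RT-PCR as targets in the FLAG IP were chosen on these samples and are no independent evidence of direction. Of these, 8 were recovered more by the FLAG antibody and 0 less, with a median of 0.57. *Acn*, *qkr58E-1*, *brp*, *pros* and *tutl* have been given above, *chinmo*, a factor of neuronal timing, was at 0.20 with the FLAG antibody against -0.39 with the Caper antibody, and *zfh1* and *dlg1*, a zinc finger factor and a synaptic scaffold, had differences of 0.40 and 0.34. *chic*, the fly profilin, was at -0.16 (adjusted p = 0.34), *lola* at 0.09 (adjusted p = 0.56) and *Unc-115a* at 0.02 (adjusted p = 0.94). *Unc-115b*, a near copy of *Unc-115a*, was at 0.78 with a standard error of 1.15, so its difference was not measured. With pair 1, 2, 3, 4, 5 or 6 left out, 8, 7, 2, 6, 5 and 1 were recovered more.

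Markers of cell types in the head moved with the antibody in the IPs. Of 7 neuronal markers 3 were recovered more by the FLAG antibody and 0 less, and their summed level was 7388 to 8127 CPM in the FLAG IPs, 6862 to 7888 in the FLAG inputs, 6309.6 to 7289 in the Caper IPs and 7134 to 7693 in the Caper inputs. All 7 photoreceptor markers had a difference below 0 and 2 were called, and their summed level was 27449 to 31361 CPM in the FLAG IPs, 39828 to 42427 in the FLAG inputs, 34795 to 55247 in the Caper IPs and 39569 to 49332 in the Caper inputs. Of 8 glial markers 4 were recovered less, with 1435 to 1564 CPM in the FLAG IPs, 1585 to 1643.5 in the FLAG inputs, 1789.7 to 2089 in the Caper IPs and 1488 to 1729.6 in the Caper inputs. The ranges of the FLAG and the Caper IPs did not overlap for these 3 lists, while those of the inputs did. When pair 1, 2, 3, 4, 5 or 6 was left out, 3, 1, 1, 1, 1 and 1 neuronal markers were recovered more, and 5, 2, 0, 2, 0 and 0 photoreceptor and 4, 1, 0, 1, 1 and 0 glial markers less. With the length correction the median difference of the neuronal markers was 0.01, against 0.28 without it, and 1 was recovered more. Photoreceptor and glial markers had medians of -0.47 and -0.35 in that fit, and 4 of each were recovered less.

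All 10 muscle markers were below 0 and 1 was called, *Mhc*, the myosin heavy chain of muscle (-0.62; 6, 1, 0, 1, 0 and 0 markers in the same order of pairs left out), with summed levels of 11501 to 12234 CPM in the FLAG IPs, 14928 to 18323 in the FLAG inputs, 15212 to 16006 in the Caper IPs and 13848 to 17485 in the Caper inputs. Markers of fat body, of hemocytes and of cuticle had median differences of -0.26, -0.17 and -0.28, and their summed levels overlapped between the FLAG and the Caper IPs. In heads, where cell types are mixed, the summed levels cannot separate fewer cells of a type from less RNA per cell. Recovery is taken over the input of the same pair, and whether the mixture of cell types bears on it was not tested. The part of these markers in the differences of the gene lists was not tested.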

How the data were processed

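Libraries of 3 FLAG IPs, 3 Caper IPs and their inputs were made from total RNA with a kit whose probes deplete *Drosophila* rRNA. The authors trimmed reads with fastp (version 0.20.1), mapped them with STAR (version 2.7.6a) to dmel_r6.36 and counted read pairs on the sense strand of exons with featureCounts from Subread (version 2.0.1) at a mapping quality of at least 20. The deposited values are raw counts per gene, with exon length beside them. Reads that map to several places are left out of these counts, which lowers values of near-identical genes. The file gives gene identifiers only, and 17193 of 17612 were named through RefSeq positions or the study's tables.

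Genes were kept by edgeR's filter on low counts (version 4.0.16 in R 4.3.3; minimum count 10, minimum total count 15), scaled by TMM and fitted with glmQLFit and glmQLFTest, with 1 term for each of the 6 pairs and 1 for the IP of each antibody, which left 4 residual degrees of freedom. The antibody difference is the contrast of the IP terms. This differs from the study's methods, which name no term for the pair. Pair numbers come from the sample titles. Their use was checked on the counts after group means were removed. Log counts of each IP then correlated with those of its own input at 0.152 to 0.770 across genes. Caper IP 2, however, correlated more with input 3 (0.565) than with its own input (0.152), so the check does not back that pair. Every other IP correlated most with its own input. The block gave a biological coefficient of variation of 0.0905, against 0.217 without it. The standard error is the log2 difference divided by the square root of F. Ratios per pair used a prior count of 2. CPM used TMM-scaled library sizes. The test was also run on counts simulated from its own fitted model with the pair terms, which cannot check whether the block is right.

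Named genes are, in each direction, the 12 with the largest difference among called genes with a mean of at least 50 counts, a name and no overlap between the antibodies' pair ratios, up to 4 called genes of each list with the largest difference, *Caper* and the RT-PCR genes. A gene that this rule names is not reported here. The 37 gene lists and 7 marker lists held 1296 entries, of which 1232 were tested. The comparison, lists, rules and alternatives were chosen with earlier results of these data known. Alternatives were DESeq2 (version 1.42.0), limma (version 3.58.1) on the ratios of pairs, other scalings and filters, protein-coding genes only, a correction for exon length (loess, span 0.5), no block, the IPs without their inputs, and each pair left out.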

Additional observations from a re-analysis of the deposited data

Results flagged for a closer look

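A difference between the antibodies in the effect of IP over input, tested as the interaction itself, is what singled out each result here: 729 genes were recovered more and 599 less by the FLAG antibody. Among the named genes, 13 were also called in opposite directions in the IPs. Enriched in the FLAG IP and depleted in the Caper IP were *Dscam2* (difference 0.87), *kis* (0.77), *eag* (0.71), *Ca-alpha1T* (0.67), *Dscam1* (0.62), *chinmo* (0.59) and *tutl* (0.56). Depleted in the FLAG IP and enriched in the Caper IP were *RpL22* (-0.94), *RpS24* (-0.85), *SPE*, a protease that activates the Toll ligand (-0.65), *beta-Spec*, a spectrin of the membrane skeleton (-0.62), *mRpL38* (-0.55) and *Ns2*, a nucleolar GTPase (-0.48). Groups of 3 libraries were too small for a test of single outlying libraries.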

How the results depend on the processing

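DESeq2 with the block, limma on the ratios of pairs, RLE or upper quartile scaling, library size only, at least 10 counts in every library and protein-coding genes only kept both counts within 1.5 times of 729 and 599. The genes called were not all the same. DESeq2 called 638 of the 729 and 384 of the 599, RLE scaling 729 and 483, and library size only 573 and 599. Without a filter, 1009 genes were recovered less, on 16178 genes tested. With the length correction 355 were recovered more. Without the block for pairs 90 were recovered more and 16 less, all of them also called with it, and the Caper IP was enriched for 1055 genes and depleted for 1255. Leaving out 1 pair gave 130 to 1104 recovered more and 31 to 1164 less. Against a difference of at least 1 (edgeR's glmTreat), 0 and 0 were called, with 69 at an unadjusted p under 0.05. The IPs compared directly, without inputs, gave 126 and 38, of which 118 and 37 were also called with inputs. No called gene changed direction under these alternatives, and 146 of the 172 named genes lost their call without the block. Genes with few counts and near-identical copies limit what single rows show.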

Other observations

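Of 31 odorant-binding proteins, which carry odorants in the fluid around olfactory neurons, 6 were recovered less by the FLAG antibody and 0 more, with a median difference of -0.47. *Obp56g*, *Obp99b*, *Obp56d* and *Obp57c* had differences of -1.01, -0.97, -0.71 and -0.70, and without pair 1, 2, 3, 4, 5 or 6 the count was 10, 3, 0, 5, 3 and 0. Of 15 antimicrobial peptides, the effectors of fly immunity, 2 (13.3%, against 5.44% of all genes) were recovered less (*DptA*, -2.05, and *Drsl5*, -0.85). All 15 differences were below 0. Without pair 1 the count was 9, and without pair 2, 3, 4, 5 or 6 it was 1, 0, 1, 0 and 0. Of 40 cytochrome P450 genes 4 (10%, against 5.44% of all genes) were recovered less, among them *Cyp6a13* (-0.65) and *Cyp6g1* (-0.52). Recovered more were 2 (5%, against 6.62%), *shd*, which makes the active moulting hormone (0.82), and *Cyp4p1* (0.67). With each pair left out in the same order, 5, 4, 0, 0, 1 and 0 P450 genes were recovered less and 4, 2, 0, 1, 1 and 0 more.

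Of 20 clock genes 4 (20%, against 6.62% of all genes) were recovered more by the FLAG antibody and 2 (10%, against 5.44%) less. Those recovered more were the repressors *tim* (0.71) and *per* (0.58), the activator *Clk* (0.50) and *Pdp1* (0.48). Those recovered less, named after their values were seen, were *cry*, the blue light receptor of the clock (-0.46), and *CkIIalpha*, a kinase of PER (-0.37). Without pair 1, 2, 3, 4, 5 or 6, 5, 4, 0, 3, 2 and 0 clock genes were recovered more and 2, 1, 0, 0, 1 and 0 less, and 1 more and 2 less with the length correction. Of 27 growth and stress transcription factors 5 (18.5%, against 6.62%) were recovered more and 2 (7.41%, against 5.44%) less, with *Xrp1*, *Myc*, *sima* and *Mnt* at 0.92, 0.70, 0.60 and 0.51. In the same order of pairs left out, 7, 3, 0, 4, 0 and 0 of them were recovered more and 2, 1, 0, 1, 0 and 0 less, and with the length correction 1 and 2. Of 35 cell cycle genes 4 (11.4%, against 6.62% of all genes) were recovered more. They were *Orc1* of the origin recognition complex (0.67), the cohesin subunits *SMC1* and *SMC3* (0.59 and 0.48) and *Rbf*, a retinoblastoma protein (0.37). The count was 4, 2, 0, 3, 1 and 0 in the same order of pairs left out and 1 with the length correction.

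Of 41 cytoskeleton and motor genes 4 (9.76%, against 5.44% of all genes) were recovered less by the FLAG antibody. The count was 10 with the length correction and 8, 4, 1, 2, 2 and 0 with pair 1, 2, 3, 4, 5 or 6 left out. Among the genes recovered less were the long genes *beta-Spec* and *Ank2*, whose product ties spectrin to the membrane, at -0.62 and -0.46, or -0.89 and -0.96 with the length correction. The tubulins *alphaTub84B* and *alphaTub84D*, near copies of each other, were at -0.62 and -0.41. Of 20 heat shock protein genes 2 were recovered more (*Hsp83*, 0.46, and *stv*, 0.36) and 2 less (*Hsp60A*, -0.38, and *Hsc70-4*, -0.36). The median was 0.08, and each count was 10% of the list, against 6.62% and 5.44% of all genes. With the pairs left out in the same order 2, 3, 0, 1, 0 and 0 heat shock genes were recovered more and 4, 0, 0, 0, 0 and 0 less.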
